A study of Mus musculus with 6 samples.

Results

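Homologous recombination, interstrand crosslink repair and the kinases and end joining factors that act beside them were read through 46 genes, listed by symbol, of 17144 genes in the count tables. They were taken by name and set in 4 classes by known role: 10 genes of damage signalling, 20 of recombination, 10 of crosslink repair (the Fanconi anemia genes) and 6 of end joining. All 46 were listed under their own symbols, and all 46 passed the filter on low counts. Messenger RNA was sequenced from cells whose label reads SaOS2, the name of an established osteosarcoma line of human origin. There were 3 libraries of group D and 3 of group C, and D and C are the letters of the library titles. The series concerns a compound named DDTC(I). What D or C stands for, which dose and time were used and whether replicates were separate cultures is not stated in the labels. Differences are therefore D minus C, and p-values reflect library-to-library spread alone, which may be technical. In such bulk samples, fewer cells of a type and less RNA per cell cannot be told apart.

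A broken chromosome is sensed by the MRE11-RAD50-NBN complex, which activates the kinase ATM, while the kinase ATR and its partner ATRIP respond to stretches of unpaired DNA. These kinases signal through CHEK1 and CHEK2 and mark nearby chromatin through H2AX, to which MDC1 binds. In homologous recombination the break ends are trimmed, the BRCA proteins prepare the exposed strand for pairing, and the sister chromatid is copied. Fanconi anemia proteins unhook crosslinks between the strands and hand the resulting break to recombination, whereas Ku, DNA-PK and ligase 4 join ends directly. Many recombination genes are transcribed mostly in dividing cells, and inherited loss of several of them causes cancer predisposition.

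The libraries held 18446443 to 20602771 counts, and member genes had 27 to 14880 counts per library. Replicates spread more in D (biological coefficient of variation 0.189) than in C (0.0752). D replicates 2 and 3 stood apart from each other along gene length. Among tested genes over 8000 bp the median log2 level was higher in D replicate 2 than in D replicate 3 by 0.604, and in genes of up to 2500 bp this difference was −0.440. Changes of the 14 members over 8000 bp are for this reason given with and without these libraries. Counts scaled by library size alone gave a median log2 change of all genes of −0.17, against −0.02 with the TMM scaling used here.

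The SaOS2 label was checked against genes of the line and of other cell types. ALPL, the alkaline phosphatase for which SaOS2 is known, had 8 to 15 counts per library, at most a mean of 0.657 CPM (TMM-normalized counts per library size). RB1, the retinoblastoma gene, had 47.8 ± 11.7 CPM in D and 35.8 ± 1.36 CPM in C (SD, n = 3 each) and was not called (adjusted p = 0.063, edgeR). RUNX2, a regulator of the bone lineage, had 9.14 ± 1.97 CPM in D and 19.6 ± 1.73 CPM in C. The ALPL level goes against the label, so the cells are named here by their label only. Of 7 epithelial markers 5 were tested, of which 3 were called higher and 1 lower, with summed levels of 125 to 161 CPM in D and 83.9 to 93.4 CPM in C, while EPCAM was near 0 (0.253 CPM in D and 0.208 CPM in C). Of 6 endothelial markers 5 were tested and 2 of these called lower, and the summed level, most of it TIE1, was 351 to 383 CPM in D and 355 to 373 CPM in C. Of 7 blood cell markers 2 were tested and 1 of these called higher, with summed levels, nearly all CD68, of 460 to 502 CPM in D and 478 to 499.7 CPM in C, while PTPRC and CD3E were near 0. The part of these markers in the results below was not tested.

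Repair genes moved in both directions, and most did not pass the test. In the edgeR quasi-likelihood test over all 12682 tested genes, 6 of the 46 members were higher in D (13.0%) and 10 were lower (21.7%) at an adjusted p under 0.05, and 30 were not called. The background over the whole table was 54.4% called, 26.8% as higher and 27.7% as lower, so neither share of the members exceeded it. The median log2 fold change of the members was −0.08, beside −0.02 for all tested genes. The falls were CHEK2, H2AX and MDC1 among the signalling genes, BARD1, XRCC3 and RAD54L in recombination, FANCB, FANCF and FANCG in crosslink repair, and LIG4 in end joining. The rises were NBN, RAD51AP1, RAD52, BRIP1, FANCC and XRCC5. Of the falls, 3 were at least 2-fold (MDC1, H2AX and BARD1), against 10.1% of all tested genes, and no member rose by that much, against 8.37%. All D libraries lay below all C libraries for 11 members and above them for 6, where the background was 32.1% and 30.6%.

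**Figure D1:**
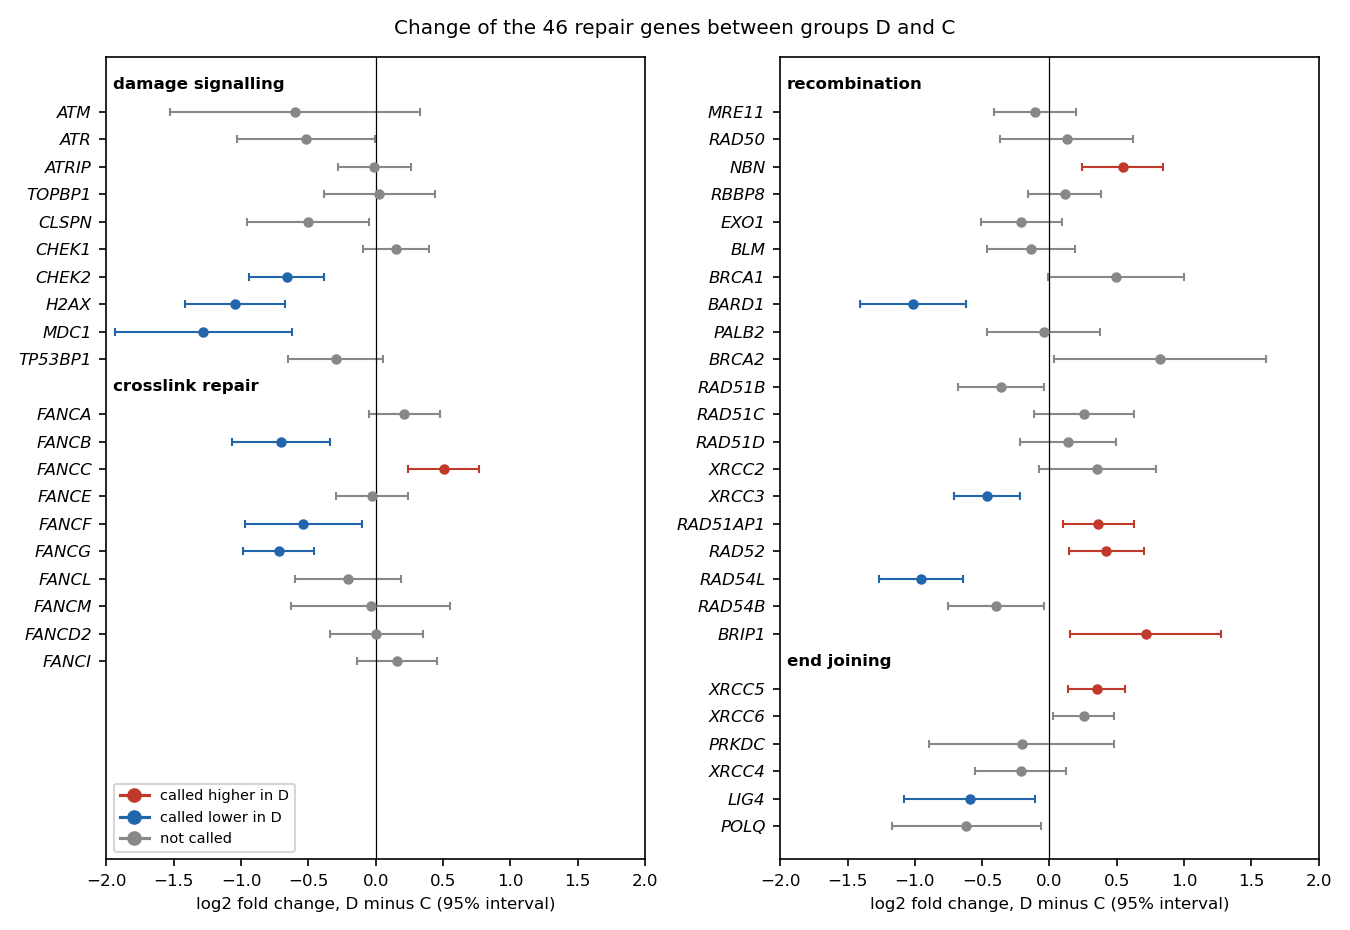
Log2 fold change (D minus C) of each of the 46 genes with its 95% interval from the edgeR fit, by class; red marks genes called higher in D, blue genes called lower and grey genes not called. The 10 falls are spread over all 4 classes, the widest intervals are those of long genes such as ATM and BRCA2, and the damage signalling genes hold 3 falls and no rise.

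Damage signalling was the class with the lowest median log2 fold change, −0.51, with 3 of 10 genes lower, a share near the background of 27.7%, and 0 higher, against 26.8%. At an unadjusted p under 0.05, 5 were lower and 0 higher in edgeR, against 30.4% lower and 29.4% higher of all tested genes. In DESeq2 4 were lower and 0 higher, against 26.8% lower and 28.4% higher of all. Its median was −0.63 without D replicate 2 and −0.26 without D replicate 3. This class had the longest genes of the 4, with a median of 6913 bp against 4081.5 bp for all tested genes. Of all tested genes of 5000 to 8000 bp, 22.5% were called higher and 32.2% lower, with a median log2 fold change of −0.12. Over 8000 bp these values were 14.3%, 30.0% and −0.23. With length trends removed, 3 genes of the class were lower and 1, CHEK1, was higher. MDC1, the scaffold that binds phosphorylated H2AX, had 99.3, 120.4 and 47.8 CPM in D replicates 1, 2 and 3, against 213, 192 and 245 CPM in C. Every D library was below every C library, although D replicate 3 had less than the other two. The log2 fold change was −1.28 ± 0.29 (SE; adjusted p = 0.0056, edgeR), and it was −1.53 without D replicate 2 and −0.97 without D replicate 3, with the call kept in both. H2AX, the histone variant that is phosphorylated around breaks, had 42.5, 35.3 and 55.7 CPM in D, against 96.1, 93.0 and 86.8 CPM in C. The groups did not overlap, and here D replicate 3 was the highest of the D libraries. Its log2 fold change was −1.05 ± 0.16 (adjusted p = 0.00083, edgeR). CHEK2, the effector kinase downstream of ATM, had 35.3, 33.8 and 41.2 CPM in D, against 58.3, 63.0 and 53.2 CPM in C. It fell by 0.66 ± 0.12 on the log2 scale (adjusted p = 0.0020, edgeR) with no overlap between the groups. Human CHEK2 has pseudogene copies that can share its reads.

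The kinases at the head of the pathway did not pass the test, and their D libraries were far apart. ATM had 27.4, 49.97 and 11.8 CPM in D, against 48.9, 39.8 and 46.6 CPM in C. D replicate 2 was above every C library and D replicate 3 was far below them. The log2 fold change of −0.60 had a 95% interval from −1.52 to 0.33 (adjusted p = 0.24, edgeR), it was −1.17 and called without D replicate 2 (adjusted p = 0.0085, edgeR), and −0.21 without D replicate 3. ATR had 21.4, 32.0 and 18.2 CPM in D, against 33.0, 28.2 and 41.7 CPM in C (log2 fold change −0.52 ± 0.22; adjusted p = 0.079, edgeR). ATR was called lower without D replicate 2 (−0.76; adjusted p = 0.0062, edgeR), and not without D replicate 3 (−0.35; adjusted p = 0.097, edgeR). CLSPN, the claspin adaptor between ATR and CHEK1, followed the same order, with 17.3, 23.3 and 13.4 CPM in D, against 22.5, 24.9 and 28.9 CPM in C (−0.50 ± 0.20; adjusted p = 0.060, edgeR), and was called without D replicate 2 (−0.70) but not without D replicate 3 (−0.32; adjusted p = 0.072, edgeR).

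The other signalling genes were not called, and their groups overlapped. ATRIP had 9.82, 10.4 and 9.65 CPM in D, against 9.69, 9.61 and 10.8 CPM in C, with a 95% interval of the log2 fold change from −0.28 to 0.26. CHEK1, the effector kinase of ATR, had 43.7, 49.4 and 49.3 CPM in D, against 40.2, 44.3 and 44.0 CPM in C (interval −0.09 to 0.39). TOPBP1, which activates ATR, had a log2 fold change of 0.03 (interval −0.39 to 0.44), which was −0.18 without D replicate 2 and 0.19 without D replicate 3. TP53BP1, which shields ends from trimming, had one of −0.30 (interval −0.65 to 0.06) and was called lower without D replicate 2 (−0.42; adjusted p = 0.021, edgeR), and not without D replicate 3 (−0.16; adjusted p = 0.26, edgeR). Per gene length, the ratio of CHEK1 to CHEK2 in FPKM (counts per gene length and library size) was 0.707, 0.834 and 0.682 in D and 0.393, 0.401 and 0.471 in C, without overlap. The ratio of MDC1 to TP53BP1 was 2.31, 2.26 and 1.33 in D and 4.14, 3.84 and 4.02 in C, also without overlap. Such ratios were computed for 11 pairs of partner or related genes, chosen after their values were seen. The D libraries were all above the C libraries in 4 pairs and all below them in 2, and the groups overlapped in 5, among them ATRIP to ATR (0.786, 0.557 and 0.907 in D and 0.503, 0.584 and 0.443 in C).

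Among genes of break sensing and trimming, NBN rose and the rest did not pass the test. NBN, the subunit of the MRE11 complex that binds ATM, had 89.2, 123 and 95.4 CPM in D, against 69.3, 70.9 and 70.9 CPM in C. All D libraries exceeded all C libraries, D replicate 2 by the most. The log2 fold change was 0.54 ± 0.13 (adjusted p = 0.0082, edgeR), 0.43 without D replicate 2 and 0.60 without D replicate 3, both called. MRE11, the nuclease, had 32.3, 43.1 and 35.3 CPM in D, against 37.1, 40.9 and 41.5 CPM in C (interval of the log2 fold change −0.41 to 0.19). RAD50, the ATPase of the complex, had 31.5, 44.1 and 23.1 CPM in D, against 28.1, 28.3 and 33.8 CPM in C (interval −0.36 to 0.62), and its direction depended on the library left out. It was called higher without D replicate 3 (0.34; adjusted p = 0.048, edgeR) and had a negative estimate, not called, without D replicate 2 (−0.11; adjusted p = 0.57, edgeR). In FPKM, the ratio of NBN to MRE11 was 4.04, 4.19 and 3.97 in D and 2.74, 2.54 and 2.50 in C, without overlap, while that of RAD50 to MRE11 was 0.885, 0.930 and 0.594 in D and 0.690, 0.629 and 0.740 in C, with overlap. RBBP8, which starts the trimming, had a log2 fold change of 0.11 (interval −0.16 to 0.38). EXO1, the long-range nuclease, had one of −0.21 (interval −0.51 to 0.09) and BLM, a helicase, one of −0.14 (interval −0.47 to 0.19).

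BARD1 fell, while BRCA1, its obligate partner, was not called. BARD1 had 5.36, 6.35 and 4.26 CPM in D, against 9.58, 10.8 and 12.0 CPM in C, with no overlap, and fell by 1.02 ± 0.17 on the log2 scale (adjusted p = 0.0013, edgeR). BRCA1 had 32.7, 46.6 and 26.2 CPM in D, against 22.9, 21.7 and 30.4 CPM in C. D replicate 3 lay inside the C range, and the estimate of 0.49 ± 0.22 on the log2 scale was not called (adjusted p = 0.088, edgeR). It passed in DESeq2 (0.52; adjusted p = 0.045), without D replicate 3 (0.68; adjusted p = 0.0021, edgeR) and after removal of length trends (0.65; adjusted p = 0.0034, edgeR), and it did not without D replicate 2 (0.27). The ratio of BRCA1 to BARD1 in FPKM was 4.78, 5.75 and 4.82 in D and 1.87, 1.58 and 1.99 in C. The lengths of the genes, 7151 and 5596 bp, were close, and the ratio varied among the D libraries less than BRCA1 itself. Human BRCA1 has a partial pseudogene that can share its reads.

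BRCA2, which acts after the ends are trimmed, had the largest positive estimate of the 46 genes and no call. It had 12.1, 26.0 and 10.2 CPM in D, against 8.76, 7.07 and 11.6 CPM in C, so D replicate 3 was within the C range. The log2 fold change was 0.82 with an interval from 0.03 to 1.61 (adjusted p = 0.074, edgeR). It was called in DESeq2 (0.84; adjusted p = 0.024), without D replicate 3 (1.07; adjusted p = 0.0017, edgeR) and after removal of length trends (1.03; adjusted p = 0.0031, edgeR), and was 0.32 without D replicate 2. PALB2, the bridge between BRCA1 and BRCA2, had 19.01, 21.4 and 14.1 CPM in D, against 16.96, 16.8 and 22.4 CPM in C (interval −0.46 to 0.38), with an estimate of −0.15 without D replicate 2 and 0.12 without D replicate 3. BRIP1, a helicase that binds BRCA1, had 21.5, 33.4 and 17.4 CPM in D, against 12.1, 14.01 and 17.9 CPM in C. The groups overlapped by D replicate 3 and C replicate 3. BRIP1 was called higher (0.71 ± 0.25; adjusted p = 0.036, edgeR), but not without D replicate 2 (0.44), D replicate 1 (0.79), C replicate 1 or C replicate 2, nor with library size only (0.57), and it was called without D replicate 3 (0.91; adjusted p = 0.00046, edgeR).

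RAD51B, RAD51C, RAD51D, XRCC2 and XRCC3 act together in recombination, and of these 5 genes only XRCC3 was called. XRCC3 had 26.6, 25.9 and 24.1 CPM in D, against 33.0, 36.9 and 35.9 CPM in C, and fell by 0.46 ± 0.11 on the log2 scale (adjusted p = 0.0067, edgeR). RAD51B had 5.53, 4.68 and 4.599 CPM in D, below 6.66, 6.10 and 6.25 CPM in C in every library, with a log2 fold change of −0.36 ± 0.14 (adjusted p = 0.057, edgeR), which was −0.29 without D replicate 2 and −0.30 without D replicate 3. XRCC2 had 11.7, 14.8 and 8.69 CPM in D, against 8.61, 9.01 and 9.95 CPM in C (0.35, interval −0.08 to 0.79). It was called higher without D replicate 3 (0.54; adjusted p = 0.0041, edgeR), and not without D replicate 2 (0.19; adjusted p = 0.33, edgeR). RAD51C (0.26, interval −0.11 to 0.63) and RAD51D (0.14, interval −0.22 to 0.49) were not called, and the groups overlapped. The estimate of RAD51D was 0.065 without D replicate 2 and 0.27 without D replicate 3.

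The genes that help strands to pair differed in direction. RAD54L, the motor protein that drives strand exchange, had 30.4, 29.4 and 24.0 CPM in D, against 48.3, 53.4 and 60.5 CPM in C. The highest D library was far below the lowest C library, and the log2 fold change was −0.95 ± 0.14 (adjusted p = 0.00054, edgeR), the lowest p of the 46 genes. Its relative RAD54B had 23.7, 33.0 and 35.3 CPM in D, against 37.9, 41.5 and 41.7 CPM in C. These groups did not overlap either, but RAD54B was not called (−0.40 ± 0.16; adjusted p = 0.059, edgeR), and was called without D replicate 3 (−0.50; adjusted p = 0.0050, edgeR) but not without D replicate 2 (−0.42; adjusted p = 0.056, edgeR). RAD51AP1, which aids strand pairing, had 19.2, 22.9 and 21.9 CPM in D, against 16.4, 17.2 and 16.2 CPM in C (0.36 ± 0.12; adjusted p = 0.026, edgeR). RAD52, which anneals strands, had 9.99, 9.37 and 9.37 CPM in D, against 7.28, 6.66 and 7.49 CPM in C (0.42 ± 0.12; adjusted p = 0.017, edgeR). Both had all D libraries above all C libraries. The call of RAD51AP1 was lost without C replicate 1, C replicate 2 or C replicate 3, and that of RAD52 without C replicate 1, C replicate 2 or D replicate 1. Neither was called with library size only (0.21 for RAD51AP1 and 0.27 for RAD52), nor was RAD51AP1 after removal of length trends (0.28). In recombination, with a median of 0.12, 3 genes fell (15%) and 4 rose (20%), against 27.7% and 26.8% of all tested genes. With D replicate 3 left out 8 rose and 4 fell, beside 3868 rises and 3837 falls of all 12830 tested genes. With library size only the median was −0.03, and 1 rose and 5 fell, beside 2586 rises and 4449 falls of all 12682.

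Fanconi anemia genes split within the core complex, while the pair that it modifies did not pass the test. Of the 10 genes 3 were lower (30%) and 1 higher (10%), against 27.7% and 26.8% of all tested genes. FANCG, a core scaffold subunit, had 21.4, 21.3 and 19.2 CPM in D, against 31.3, 34.9 and 36.1 CPM in C (−0.72 ± 0.11; adjusted p = 0.00094, edgeR). FANCB, which sits with the ligase subunit, had 3.95, 3.96 and 3.41 CPM in D, against 5.59, 5.78 and 7.06 CPM in C (−0.70 ± 0.16; adjusted p = 0.0057, edgeR). FANCF, an adaptor subunit and the member with the fewest counts, had 1.75, 1.41 and 1.53 CPM in D, against 2.36, 2.40 and 2.04 CPM in C (−0.54 ± 0.19; adjusted p = 0.042, edgeR). For these 3 genes the groups did not overlap. The call of FANCF was lost when any of the 6 libraries was left out, and in DESeq2 (−0.51; adjusted p = 0.14). FANCC, of the same complex, had 21.6, 19.1 and 18.5 CPM in D, against 13.1, 14.2 and 14.4 CPM in C, and rose by 0.50 ± 0.12 (adjusted p = 0.0062, edgeR), with no overlap and with the call kept without any 1 library (0.56 without D replicate 2 or D replicate 3).

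The remaining Fanconi anemia genes had overlapping groups. FANCD2, which with FANCI is ubiquitinated at a crosslink, had 60.5, 67.9 and 46.6 CPM in D, against 54.5, 55.7 and 64.2 CPM in C, a log2 fold change of 0.01 with an interval from −0.34 to 0.35, and of −0.08 without D replicate 2 and 0.16 without D replicate 3. FANCI had 76.5, 95.6 and 71.4 CPM in D, against 68.7, 71.6 and 77.6 CPM in C (0.16, interval −0.14 to 0.46). Pseudogenes of human FANCD2 can share its reads. FANCL, the ubiquitin ligase of the core, had 7.34, 8.07 and 10.6 CPM in D, against 8.56, 11.1 and 10.3 CPM in C (−0.21, interval −0.60 to 0.18). FANCE, which contacts FANCD2, had 8.91, 8.54 and 9.54 CPM in D, against 9.02, 9.48 and 9.05 CPM in C (−0.03, interval −0.30 to 0.24). FANCA, a core subunit, had 60.3, 58.7 and 49.4 CPM in D, against 45.4, 49.1 and 50.7 CPM in C (0.21, interval −0.05 to 0.48) and was called higher without D replicate 3 (0.31; adjusted p = 0.018, edgeR), and not without D replicate 2 (0.21; adjusted p = 0.15, edgeR). FANCM, the translocase that finds stalled forks, had 6.43, 11.3 and 5.45 CPM in D, against 8.35, 6.84 and 8.67 CPM in C, with an interval from −0.63 to 0.55 and estimates of −0.39 without D replicate 2 and 0.17 without D replicate 3.

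In end joining the Ku gene XRCC5 rose and the ligase gene LIG4 fell. Each is 1 of 6 genes (16.7%), against 26.8% higher and 27.7% lower of all tested genes. XRCC5, the larger Ku subunit, had 524, 520.3 and 523 CPM in D, against 404, 426 and 400.2 CPM in C (0.35 ± 0.09; adjusted p = 0.012, edgeR). XRCC6, the other Ku subunit, had 802, 740.0 and 804 CPM in D, against 641, 688 and 639 CPM in C (0.25 ± 0.10; adjusted p = 0.057, edgeR). Neither gene had overlapping groups. XRCC5 was not called without C replicate 1 or C replicate 3 or with library size only (0.20), while XRCC6 was called in DESeq2 (0.28; adjusted p = 0.018) and without D replicate 2 (0.33) or D replicate 3 (0.25). Human XRCC6 has processed pseudogenes that can share its reads. LIG4, the ligase of this pathway, had 3.89, 6.71 and 5.28 CPM in D, against 8.05, 6.70 and 9.29 CPM in C. The highest D library was just above the lowest C library, the log2 fold change was −0.59 ± 0.21 (adjusted p = 0.043, edgeR), and the call was lost without C replicate 1, C replicate 3 or D replicate 1.

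XRCC4, the partner of LIG4, had 13.1, 15.4 and 18.5 CPM in D, against 18.5, 19.6 and 16.5 CPM in C (−0.21, interval −0.55 to 0.12). PRKDC, the DNA-PK catalytic subunit and the longest gene of the 46 at 13459 bp, had 484, 765 and 287 CPM in D, against 598, 499 and 675 CPM in C. The D libraries spanned the whole C range, and the log2 fold change was −0.20 (interval −0.89 to 0.48), −0.58 and called without D replicate 2 (adjusted p = 0.046, edgeR) and 0.09 without D replicate 3. POLQ, the polymerase of microhomology-mediated joining, had 18.3, 27.6 and 12.9 CPM in D, against 30.3, 27.04 and 33.0 CPM in C. The groups overlapped by D replicate 2, and POLQ was not called (−0.62 ± 0.24; adjusted p = 0.058, edgeR). It was called lower without D replicate 2 (−0.92), without D replicate 3 (−0.38) and in DESeq2 (−0.60; adjusted p = 0.032).

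**Figure D2:**
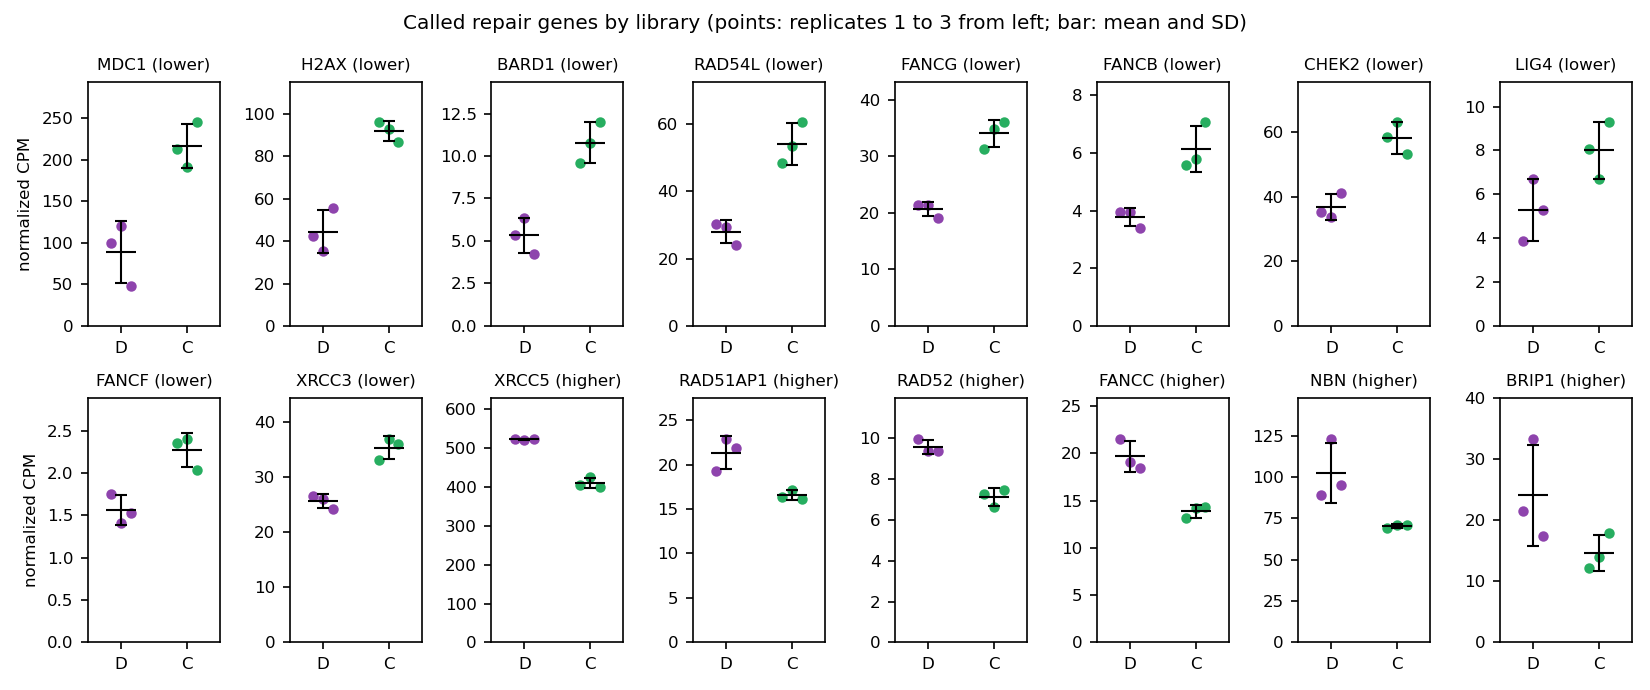
Normalized CPM of the 16 called genes in each library, D left of C; points are replicates 1 to 3 from left to right, and the black bar and whiskers are the mean and SD. In 14 of the 16 panels the groups do not overlap, and in LIG4 and BRIP1 they do. The genes were picked by the test on these same libraries, so this separation largely follows from the choice. Of all tested genes, 30.6% had all D libraries above all C libraries and 32.1% had them below.

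Per gene length, the Ku genes stood far above all other members. XRCC6 had 349 ± 12.6 FPKM in D and 326 ± 12.7 FPKM in C, and XRCC5 had 147 ± 4.43 FPKM in D and 128 ± 3.87 FPKM in C (SD, n = 3 each). PRKDC followed in D (36.4 ± 17.9 FPKM) and H2AX in C (60.9 ± 2.97 FPKM), and in D the levels of PRKDC and H2AX (26.4 ± 5.26 FPKM) did not differ beyond their spread. CPM values are not scaled by gene length, and PRKDC is the longest member. In these units the 3 genes of DNA-PK took 57.3% to 59.5% of the member sum in D and 51.4% to 52.99% in C. The lowest levels in D were those of FANCF (0.450 ± 0.0526 FPKM), FANCB (0.466 ± 0.0528 FPKM) and RAD51B (0.506 ± 0.0612 FPKM), whose order lies within their spread. The median over the 46 genes was 4.09 FPKM in D and 4.90 FPKM in C, and 11 genes exceeded 10 FPKM in D against 15 in C. FPKM is scaled by library total without the TMM factors, which were 0.915 to 0.971 in D and 1.05 to 1.06 in C. This lowers D beside C, so these medians and counts are not a measure of change. FANCD2 had 9.37 FPKM in D and 10.3 FPKM in C, but 58.3 CPM in D and 58.1 CPM in C. The order of the genes was similar in the groups (Spearman rho 0.958 over 46 genes, which share the libraries). RAD54L was 17th in D and 7th in C, and NBN was 5th in D and 10th in C.

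**Figure D3:**
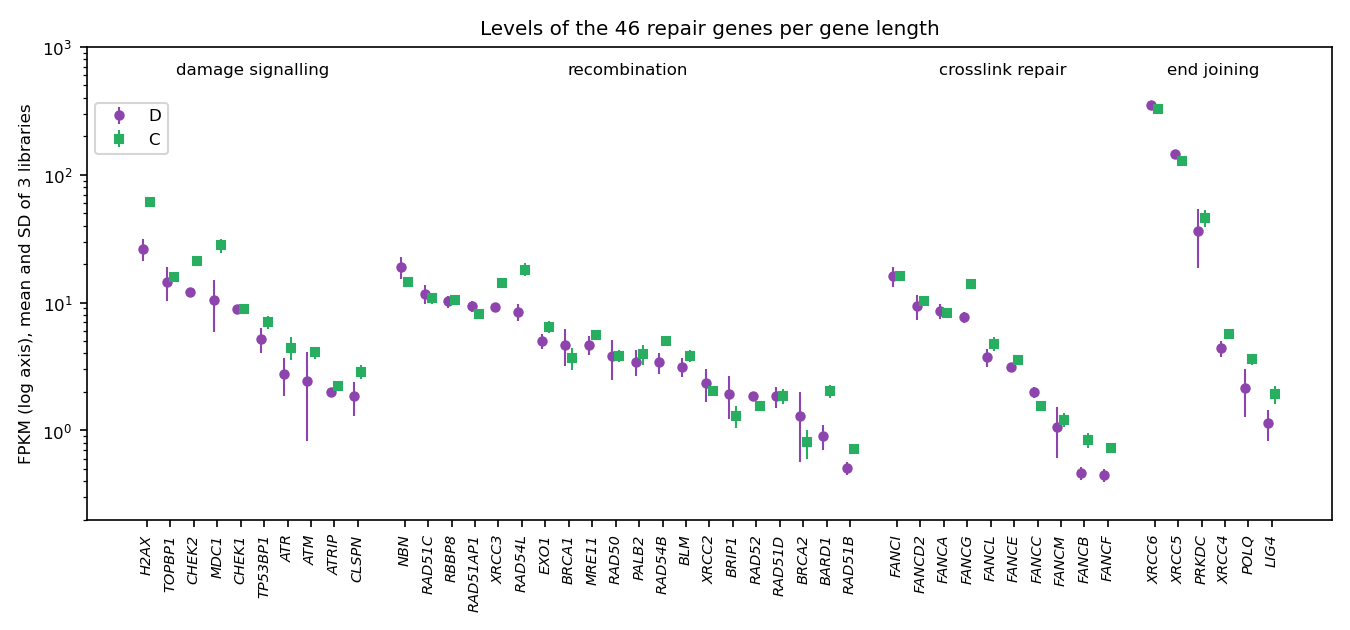
FPKM of the 46 genes on a log axis, as mean and SD of 3 libraries, with D as purple circles and C as green squares, by class and in falling order of the D mean. XRCC6 and XRCC5 lie above 100 FPKM in both groups, and the SD of D is widest for long genes such as ATM (2.45 ± 1.63 FPKM in D). FPKM is scaled by library total, without the TMM factors.

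The spread within D followed gene length in the members as in all genes. Of the 14 members over 8000 bp, D replicate 2 was the highest and D replicate 3 the lowest D library in 11. In the 5 members of up to 2500 bp this held for 0, and D replicate 3 was the highest in 4. ATM was 4.23 times as high in D replicate 2 as in D replicate 3, PRKDC 2.67 times and BRCA2 2.56 times, whereas H2AX was at 0.635 of its level. Other long members differed less between these libraries, with ratios of 1.48 for TP53BP1 (11555 bp), 1.04 for FANCC, 1.02 for RAD51B and 0.936 for RAD54B. Over the 46 members, log2 length and the deviation from the D mean had Pearson r values of 0.0714, 0.723 and −0.711 in D replicates 1, 2 and 3, with lengths and libraries shared among the points. Between the groups, length and log2 fold change had r = 0.123. Of the 14 longest members 11 were not called, and the coefficient of variation was larger in D than in C for 40 of the 46 genes. Of all tested genes over 8000 bp, 14.3% were called higher and 30.0% lower.

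**Figure D4:**
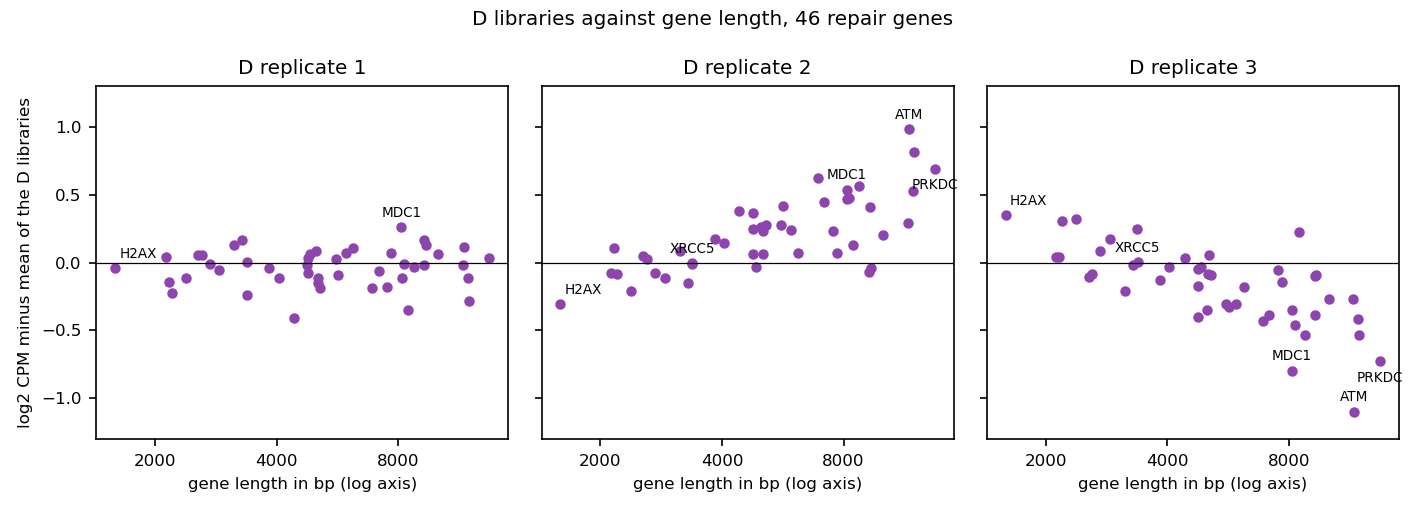
Log2 CPM of each of the 46 genes minus its mean over the D libraries, against gene length on a log axis, with a panel for each D library. Points rise with length in D replicate 2 (r = 0.723), fall in D replicate 3 (r = −0.711) and show little slope in D replicate 1 (r = 0.0714).

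Other genes of these pathways, from lists of the same roles, included rises and falls. Of 73 tested genes 15 rose (20.5%) and 21 fell (28.8%), with a median log2 fold change of 0.01. Of all tested genes 26.8% rose and 27.7% fell. Signalling and chromatin genes numbered 20, of which 5 rose (25%) and 6 fell (30%). ETAA1, an ATR activator, had 3.41 ± 0.437 CPM in D and 12.2 ± 0.464 CPM in C (−1.84 ± 0.14; adjusted p = 2.7e-05, edgeR), and WEE1, a kinase that restrains mitotic entry, fell by 0.85 and the ubiquitin ligase RNF8 by 0.81. SHLD1, a shieldin subunit, had 10.03 ± 2.99 CPM in D and 3.69 ± 0.590 CPM in C (1.44 ± 0.25; adjusted p = 0.0014, edgeR), and BABAM1 (0.65) and HUS1 (0.58) also rose.

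Of 24 tested other recombination genes 6 rose (25%) and 4 fell (16.7%), against 26.8% and 27.7% of all tested genes. EME1, the partner of the MUS81 nuclease, had 19.2 ± 0.182 CPM in D and 46.2 ± 2.70 CPM in C (−1.27 ± 0.11; adjusted p = 4.3e-05, edgeR), and RMI2 (−1.13) and RMI1 (−0.57) of the BLM complex fell. FIGNL1 (0.94), the resolvase gene GEN1 (0.81) and TOP3A (0.72), the topoisomerase that acts with BLM, rose. Of 17 tested other crosslink repair genes 1 rose (5.88%) and 7 fell (41.2%), with a median of −0.29. UBE2T, the conjugating enzyme that works with FANCL, had 13.0 ± 3.07 CPM in D and 43.3 ± 3.13 CPM in C (−1.74 ± 0.17; adjusted p = 8.7e-05, edgeR), and the nuclease genes SLX4 (−0.81) and ERCC4 (−0.75) fell. ERCC1, which forms the nuclease with ERCC4, had 148 ± 19.8 CPM in D and 74.8 ± 3.47 CPM in C (0.99 ± 0.12; adjusted p = 0.00024, edgeR). Of 12 other end joining genes 3 rose (25%) and 4 fell (33.3%). The rises were DCLRE1C (0.81), APTX (0.72) and NHEJ1 (0.57), and PARP1 (−0.65), LIG3 (−0.52) and XRCC1 (−0.43) were among the falls.

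Genes of the cell cycle were read beside the repair genes. Of 35 replication genes 6 rose (17.1%) and 8 fell (22.9%), against 26.8% and 27.7% of all tested genes. Their median was −0.12, with ORC6 (0.97) and PRIM2 (0.88) as the largest rises and TYMS (−0.82) and GINS1 (−0.69) as the largest falls. All 28 mitosis genes fell, with a median of −1.44 and with KIF20A (−3.21) and MKI67 (−2.82) falling most. Their summed level was 1514 to 1616 CPM in D and 4865 to 5070 CPM in C. Of the 46 repair genes, MDC1, H2AX and BARD1 had changes below the highest of the mitosis genes, −0.96, and the others lay above it. The part of these changes in the repair results was not tested.

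**Figure D5:**
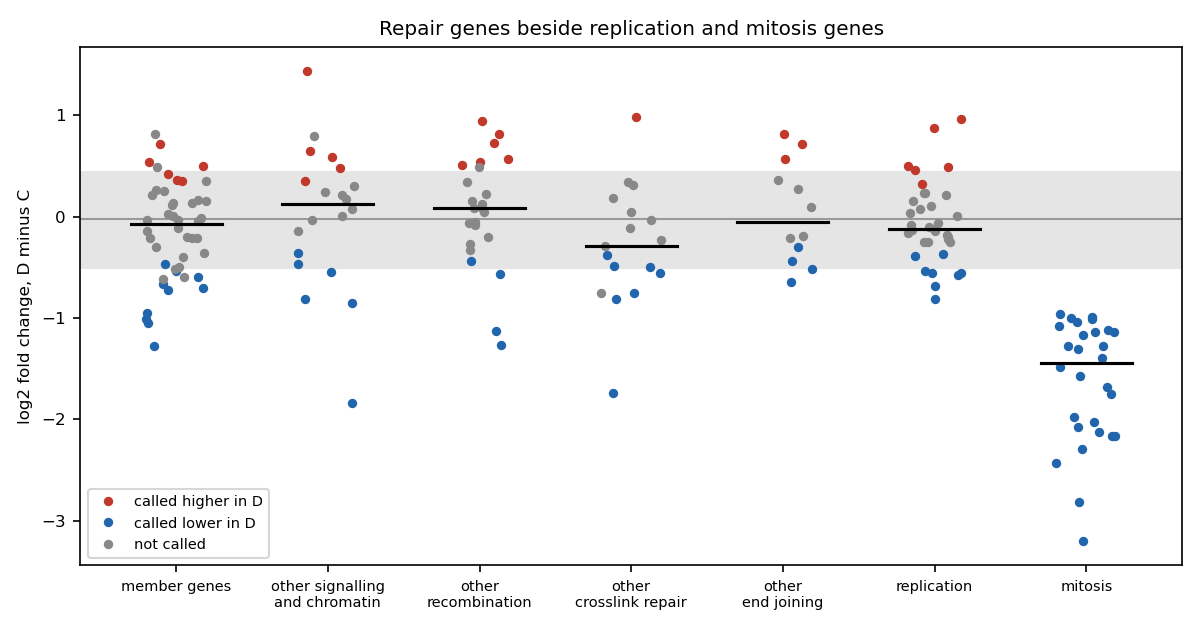
Log2 fold change (D minus C) of the 46 member genes, the other repair genes by role, replication genes and mitosis genes; each point is a gene, red called higher in D, blue called lower and grey not called, black bars are medians, and the grey band and line are the quartiles and the median of all tested genes. The repair and replication lists have medians between −0.29 and 0.12, and all 28 mitosis genes are at or below −0.96.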

How the data were processed

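For each library the authors deposited whole-number counts per gene symbol, not normalized, and FPKM values of the same genes, per the file headers and file names. The authors' FPKM values equalled the deposited count per library total and per a constant gene length for 17144 of 17144 genes (relative tolerance 0.001), and that length is the gene length used here. Per the labels' protocols, the RNeasy mini plus kit gave total RNA and a SMARTER kit the mRNA libraries. Aligner, counting tool and strand use are not named in the labels, so reads of overlapping antisense genes cannot be told apart. The labels name the mouse, and the submitters' processing notes name GRCm38 and mm10, but the symbols follow human naming: 0 of the 46 members and 16 of 17144 listed symbols matched a mouse symbol by letter case. No coordinates or sequences are given.

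The test of the counts was that of edgeR 4.0.16 in R 4.3.3 (filterByExpr, TMM factors, quasi-likelihood F test, 2-sided, group as the only term) over 12682 genes, with Benjamini-Hochberg adjustment over all of them and a call at an adjusted p under 0.05. The SE is the log2 fold change divided by the square root of F, and intervals are 95%. Levels between genes are compared in FPKM. A floor of 3 counts was 0.139 to 0.170 CPM, and floors cover counting error only. Alternatives used DESeq2 1.42.0, limma 3.58.1 on log2(FPKM + 1) or log2(FPKM + 0.1), other scalings and filters, a threshold of 0.01, a block for the replicate number, lowess removal of length trends (span 0.4) and each library left out. The members and the lists were chosen with earlier results of these data known. Values per library are given for members, and other lists are named by their largest called changes (mean log2 CPM of at least 2), with up to 3 per direction for repair lists and 2 for the rest. RB1, RUNX2, ALPL and the markers were named apart from that order. With 3 libraries per group, no library was screened as an outlier.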

Additional observations from a re-analysis of the deposited data

How the results depend on the processing

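CHEK2, H2AX, MDC1, BARD1, XRCC3, RAD54L and FANCG were called lower under all 17 alternatives, and FANCB under all 15 that tested it. None of the 6 rises was called under all, 13 of the 30 uncalled members were called under none, and no call changed direction. Library size only gave 2 higher and 16 lower members, beside 2586 higher and 4449 lower of all 12682 tested genes. The member falls included 5 in damage signalling, 5 in recombination and 3 in end joining, and recombination had 1 rise and end joining 0. An adjusted p under 0.01 left 2 member rises, 1 in recombination and 0 in end joining, and 0 falls in end joining. Of all tested genes 2393 rose and 2472 fell at that threshold. Removal of length trends gave 11 member rises, 1 in damage signalling, 7 in recombination and 2 in crosslink repair, with 2 falls in end joining. All 12682 tested genes then had 4169 rises and 3854 falls. DESeq2 gave 2 rises and 2 falls in end joining, RLE factors 2 rises and no filter 2 falls there. Of all genes, 3608 rose and 3396 fell in DESeq2, 3528 rose with RLE factors and 3631 of 17144 fell with no filter. In limma on filtered log2(FPKM + 1) or log2(FPKM + 0.1), 1 of 42 tested members rose, in recombination, with 0 in crosslink repair and end joining. Falls then numbered 5 in damage signalling, 1 of 8 tested genes in crosslink repair and 3 in end joining. FANCB and FANCF were not tested in these fits. Of all 10563 genes tested in these 2 fits, 2213 or 2209 rose and 3908 or 3877 fell. Without the filter limma called 0 members higher, with 5 falls in recombination, while NBN, RAD51AP1, RAD52, BRIP1, FANCC and XRCC5 lost their calls. Of all 17144 genes in that fit, 2687 rose and 4447 fell.

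Same-numbered libraries did not deviate together (r = 0.00838, −0.397 and −0.365). With 3 libraries per group, these values cannot show whether the numbers pair the libraries. With the replicate block 2 members rose and 8 fell, with 1 rise in recombination and 0 rises and 0 falls in end joining, and 2694 and 2977 of all genes were called. No library correlated best with its own number. With 1 library left out at a time, members had 2 to 12 rises and 8 to 15 falls, damage signalling 3 to 7 falls, recombination 1 to 8 rises and 3 to 4 falls, crosslink repair 1 to 2 rises and 2 to 2 falls, and end joining 0 to 2 rises and 0 to 3 falls. Over all tested genes the same fits gave 2627 to 3888 rises and 2780 to 3879 falls. The causes of these differences were not tested. The lowest depth behind a named member was 27 counts, for FANCF.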
